A study of Mus musculus with 6 samples.

Results

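The replication-dependent histone genes encode the bulk of the histones H1, H2A, H2B, H3 and H4 that package newly copied DNA, and they lie in clusters of short genes without introns. They were chosen by name from a RefSeq table of the mouse genome (GRCm38.p6), as protein-coding genes H1f1 to H1f6 or genes whose symbol is H2ac, H2bc, H3c or H4c followed by a number. This gave 63 of 21776 protein-coding genes: 6 H1, 17 H2A, 16 H2B, 12 H3 and 12 H4 genes. Chromosome 13 held 53 of them and chromosome 3 held 10. As annotated in that table, not all are short: H2bc6 spans 37455 bp, H2bc22 14079 bp, H2bc4 8282 bp, H2bc23 3788 bp and H2bc21 2667 bp. The histone genes of chromosome 11 carry other symbols and are not among the 63.

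Cardiac neural crest cells were studied by chromatin immunoprecipitation with sequencing, with an antibody against CHD7, a chromatin remodelling ATPase, with an antibody against H3K27ac, an acetylation of histone H3 found at active promoters and enhancers, and as input chromatin. Each of these 3 groups had 2 libraries. Per the labels, males carrying Wnt1-Cre2, a Cre driver of the neural crest lineage, were crossed with females carrying the mTmG reporter, and cells positive for green fluorescent protein were sorted from pharyngeal arches 3 to 6 of E10.5 embryos, for all 3 groups alike. Whether libraries 1 and 2 were made from different litters or sorts is not in the labels, so p-values measure the spread between these libraries alone, which may be technical. The sorted gate takes any cell with a history of Cre activity.

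Transcription of these genes is coupled to S phase, when DNA is copied, and takes place in histone locus bodies, nuclear structures organised by NPAT on the clusters themselves. Their messages end in a conserved stem-loop and not in a poly(A) tail, and a dedicated machinery with the U7 snRNP cuts them. Not all members follow this scheme in every tissue: H2bc1, H2ac1 and H1f6 encode variants best known from the testis.

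Promoters of 4 members show the sequence context, with the 250 bases before the start of transcription from RefSeq (GRCm38.p6), written 5′ to 3′ on the strand of the gene. H2bc1 had the highest CHD7 enrichment of the 63 genes and no H3K27ac region, H4c11 had the highest H3K27ac enrichment, H1f4 is the H1 gene with the most CHD7 at the gene itself, and H4c2 had CHD7 without H3K27ac. They lie at chr13:23934157-23934406 (minus strand), chr13:21734784-21735033 (plus), chr13:23622559-23622808 (minus) and chr13:23756687-23756936 (plus). Capitals mark 4 motifs on either strand: TATAAA of the TATA box, then CCAAT, the site of the factor NF-Y, then the octamer ATTTGCAT, the site of the factor encoded by Pou2f1, and the core GGTCC known from H4 promoters.
H2bc1: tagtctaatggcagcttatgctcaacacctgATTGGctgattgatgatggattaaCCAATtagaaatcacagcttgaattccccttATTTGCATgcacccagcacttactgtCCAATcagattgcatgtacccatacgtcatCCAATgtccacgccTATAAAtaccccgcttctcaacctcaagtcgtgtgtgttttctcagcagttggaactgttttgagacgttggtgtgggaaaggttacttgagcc
H4c11: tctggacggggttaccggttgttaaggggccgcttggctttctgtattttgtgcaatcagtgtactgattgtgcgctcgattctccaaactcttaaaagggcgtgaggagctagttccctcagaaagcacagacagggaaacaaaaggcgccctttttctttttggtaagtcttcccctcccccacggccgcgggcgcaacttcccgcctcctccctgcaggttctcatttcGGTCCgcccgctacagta
H1f4: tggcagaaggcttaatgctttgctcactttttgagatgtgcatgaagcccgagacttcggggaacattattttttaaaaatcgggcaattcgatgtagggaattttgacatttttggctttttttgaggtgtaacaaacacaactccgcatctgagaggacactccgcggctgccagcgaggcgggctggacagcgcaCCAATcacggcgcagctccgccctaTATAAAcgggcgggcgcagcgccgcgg
H4c2: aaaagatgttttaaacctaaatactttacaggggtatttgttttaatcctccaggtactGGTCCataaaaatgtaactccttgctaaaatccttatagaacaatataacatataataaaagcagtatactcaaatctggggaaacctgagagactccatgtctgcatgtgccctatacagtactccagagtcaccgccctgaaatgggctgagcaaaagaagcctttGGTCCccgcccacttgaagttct
A promoter whose start coincides with an end of the gene was matched for 56 of the 63 genes, and the other 7 were not used for this. CCAAT was found in 46 of these 56 promoters (82.1%), against 37.4% of 10583 promoters of protein-coding genes, and in every H1, H2A and H2B promoter matched. TATAAA was found in 27 (48.2%), against 15.7% of all promoters. No position was required for it: the nearest match lay 250 bases before the start in H4c6, 209 in H2bc7 and 26 in H1f3. The 27 are thus not all TATA boxes by position. The octamer was found in 12 (21.4%), 6 H2A and 6 H2B promoters, against 1.92% of all promoters. Promoters of divergent genes can overlap, so a match can count for both genes. This holds for the octamer of H2ac12 and H2bc12, of H2ac8 and H2bc8, and of H2bc1 and H2ac1. Each of these pairs also enters the medians below with the same CHD7 region for both genes. GGTCC was found in 22 (39.3%), against 40.9% of all promoters, and in 10 of 11 H4 promoters. In H1f4 the TATAAA lies 27 bases and the CCAAT 52 bases before the start, whereas the TATAAA of H2bc1 lies 94 bases before its annotated start. The 12 genes with the octamer had a median CHD7 fold (the enrichment at the peak summit) of 4.19, and the 44 without it 3.73. For TATAAA the medians were 3.70 in 27 genes with it and 4.21 in 29 without, for CCAAT 3.76 in 46 genes with it and 3.94 in 10 without, and for GGTCC 3.83 in 22 genes with it and 3.86 in 34 without. The median H3K27ac folds with and without were 3.60 and 2.80 for the octamer, 2.67 and 3.50 for TATAAA, 2.80 and 3.41 for CCAAT, and 3.35 and 2.78 for GGTCC. Genes without an H3K27ac region do not enter these. Among them are H2bc1 and H2ac1, which have the octamer and enter its CHD7 median. A match of letters does not show that a factor binds there.

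The 6 peak lists, called by the authors on single libraries, held 31873 and 26927 peaks for CHD7, 24283 and 22686 for H3K27ac, and 451 and 512 for input. No read counts are given, and depth is therefore unknown. A region means the merged extent of overlapping peaks found in both libraries of a group, and a gene was counted where a region lay within 1 kb of either of its ends. Of 10 neural crest markers, 2 (Ets1 and Snai2) had CHD7 and 1 (Twist1) had H3K27ac at an end, and Sox10, Foxd3, Tfap2a and the others had neither. Of 6 blood markers, 2 had CHD7 and 3 had H3K27ac. Endothelial, epithelial and neuronal lists had CHD7 at 1 of 5 genes each and H3K27ac at 0, 1 and 1 of 5, and cardiomyocyte markers had neither. The gene ends alone thus do not show the labelled cell type.

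CHD7 lay at every clustered histone gene. All 63 had a region, against 44.2% of all protein-coding genes, and each CHD7 library alone had a peak at 63 of 63, where 51.1% and 49.1% of all genes had one. H3K27ac regions lay at 58 of the 63 (47.6% of all genes), and each H3K27ac library had peaks at 58, where 51.3% and 49.8% of all genes had one. Both lay at 58 genes (39.3% of all genes). The 5 genes with CHD7 and without H3K27ac were H3c11, H4c2, H1f6, H2bc1 and H2ac1 (4.83% of all genes), and none had H3K27ac without CHD7 (8.29% of all genes). Neither input library had a peak at any of the 63, where 0.0689% and 0.133% of all genes had one in library 1 and 2 and 0.0505% had an input region. No member lacked both CHD7 and H3K27ac, as 47.5% of all genes did. Of 1507 other protein-coding genes of at most 1000 bp, 39 (2.59%) had CHD7 and 45 (2.99%) had H3K27ac. They were not matched to the histone genes for activity, and the part of gene length was not tested.

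**Figure D1:**
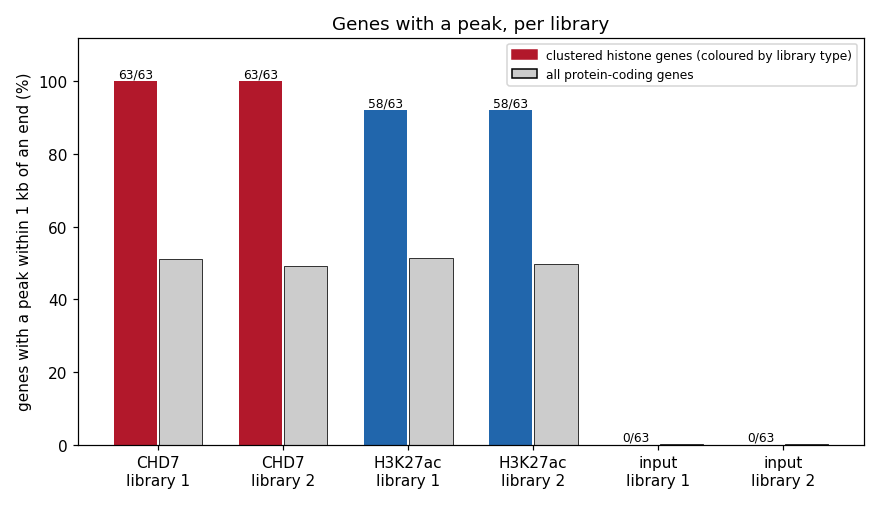
Percentage of genes with a peak within 1 kb of an end in each library, for the 63 clustered histone genes (coloured, with counts) and for all 21776 protein-coding genes (grey). Both CHD7 libraries reach 63 of 63 and both H3K27ac libraries 58 of 63, while the grey bars stay between 49.1% and 51.3%, and the input libraries have no histone gene.

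The share of histone genes with a peak was 100% in both CHD7 libraries and 92.1% in both H3K27ac libraries, a difference of 7.94 percentage points. Less the share of all genes in the same library, it was 49.9 ± 1.42 points for CHD7 and 41.5 ± 1.08 points for H3K27ac (SD, n = 2 each), 8.32 points apart. Each difference exceeded the spread between libraries, with an exact permutation p of 0.333 (two-sided), the smallest that 2 against 2 libraries can give. When peaks needed a −log10 q of 10 or more, CHD7 was still found at 63 of 63 genes (10.6% of all genes) and H3K27ac at 36 (28.3% of all genes), and the differences were 31.0 and 47.5 points. With the 10000 peaks of lowest q in each list they were 21.4 and 29.0 points, and within 2.5 kb of a gene end 5.56 and 4.79 points. The 36 genes with H3K27ac at the stricter q were all 10 genes of chromosome 3 and 26 of the 53 genes of chromosome 13. By type they were 3 of 6 H1, 9 of 17 H2A, 9 of 16 H2B, 8 of 12 H3 and 7 of 12 H4 genes.

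Enrichment is given as the fold of a peak, the ratio at its summit that the authors' peak caller reported, in library 1 and library 2. Fold describes peaks within the lists of 1 antibody, and the strongest region within 1 kb stands for a gene. That region can lie over a neighbour, so folds by gene, type and place partly describe neighbours. H3c10, for example, counts with CHD7 folds of 3.78 and 3.63, while the region over the gene itself has 2.39 and 2.21. The 63 genes had a median CHD7 fold of 3.94 (3.92 in library 1, 3.96 in library 2), against 3.73 over all 9618 genes with a CHD7 region. They spread widely around it: 20 of 63 lay above 4.998, the 90th percentile of all those genes, and 36 above the median. The median H3K27ac fold of 58 histone genes was 3.41 (3.33 in library 1, 3.26 in library 2), against 4.80 over all 10372 genes with an H3K27ac region. Of these 58, 5 lay above that median and 0 above the 90th percentile of 6.65. At the median the histone genes thus lay close to all genes in CHD7 fold and below them in H3K27ac fold. Across the 58 genes with both, CHD7 and H3K27ac fold had a Spearman rho of 0.814, against 0.442 across 8567 genes with both. Genes that share a region share its value, and genes are not independent replicates.

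**Figure D2:**
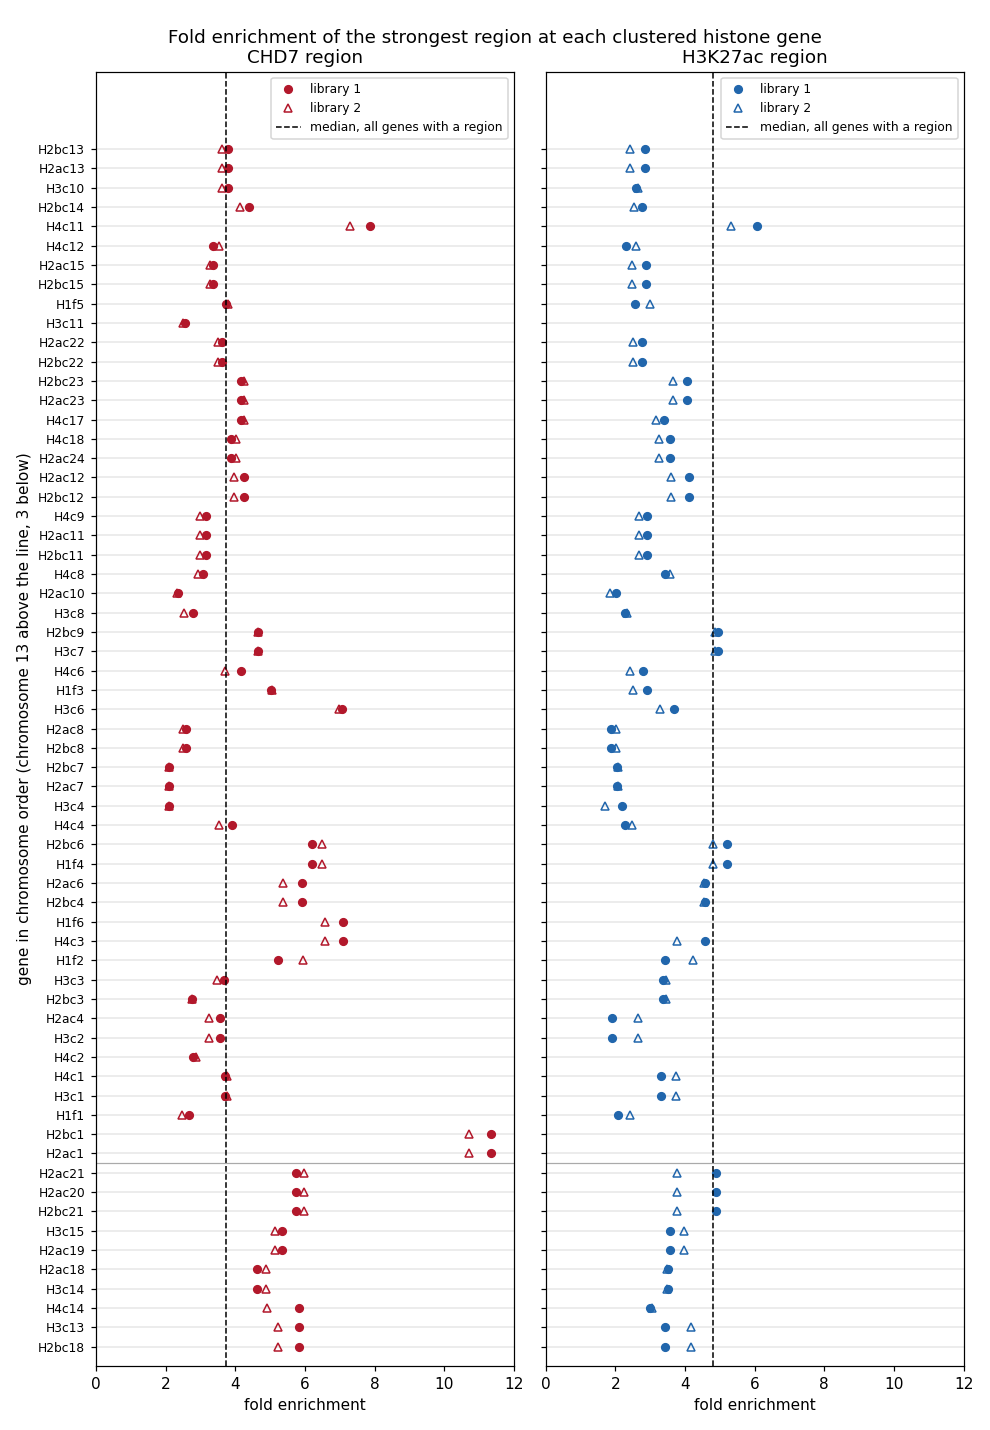
Fold enrichment of the strongest CHD7 region (left) and H3K27ac region (right) at each of the 63 genes, in chromosome order, with library 1 filled and library 2 open and the median of all protein-coding genes with a region dashed (3.73 for CHD7 and 4.80 for H3K27ac). The genes of chromosome 3 lie right of it for CHD7, H2bc1 and H2ac1 lie farthest right, and 5 genes lack H3K27ac.

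The linker histone genes, whose product H1 seals the DNA between nucleosomes, had a median CHD7 fold of 5.31 and ranged widely. H1f4 (chromosome 13, 23621777 to 23622558) had CHD7 folds of 6.20 and 6.48 and H3K27ac folds of 5.21 and 4.80. H1f2 had 5.24 and 5.94 for CHD7 and 3.41 and 4.23 for H3K27ac. H1f3 followed with 5.01 and 5.05 for CHD7 and 2.92 and 2.51 for H3K27ac. These 3 genes lay above the 90th percentile of all genes for CHD7. H1f5 had 3.73 and 3.80 for CHD7 and 2.57 and 2.99 for H3K27ac. H1f1 was lowest, with 2.67 and 2.46 for CHD7 and 2.07 and 2.43 for H3K27ac. H1f6, the testis H1, has no CHD7 region of its own: the region counted for it lay 619 bp from its end and covered H4c3, with folds of 7.08 and 6.57. Its nearest H3K27ac region lay 1108 bp away and thus just outside 1 kb.

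The core histone genes had median CHD7 folds of 3.94 for H2A, 4.16 for H2B, 3.72 for H3 and 3.84 for H4. Their extremes lay in the same clusters. H2bc1 and H2ac1, a divergent pair, shared a region of folds 11.3 and 10.7, and 2 of all protein-coding genes had a higher mean CHD7 fold. H4c11 (chromosome 13, 21735034 to 21735456) had CHD7 folds of 7.87 and 7.30 and the highest H3K27ac folds of the 63 genes, 6.06 and 5.33. H3c6 (chromosome 13, 23561475 to 23562385) had 7.05 and 6.98 for CHD7 and 3.70 and 3.28 for H3K27ac. H4c3 had, in the region it shares with H1f6, 7.08 and 6.57 for CHD7 and 4.57 and 3.78 for H3K27ac. H2bc6, which shares its regions with H1f4, and the pair H2ac6 and H2bc4 (5.93 and 5.38 for CHD7, 4.57 and 4.55 for H3K27ac) were also high for both. Their H3K27ac regions lay over H1f4 and H2bc4. Those over H2bc6 and H2ac6 had 2.54 and 3.02, and 3.42 and 3.03. H2bc9 and H3c7 shared H3K27ac folds of 4.94 and 4.85 and CHD7 folds of 4.66 and 4.66, in regions that reached H3c7 and not H2bc9. The regions over H2bc9 itself had 2.79 and 2.58 for H3K27ac and 4.14 and 3.89 for CHD7. At the low end, H2bc7, H2ac7 and H3c4 were counted with the same CHD7 region, of folds 2.089 and 2.097, which lay over H2ac7. Over the 63 genes the CHD7 values of the libraries had a median SD of 0.106 and ranked genes alike (Spearman rho 0.984), so the range from 2.09 to 11.02 far exceeded the spread between libraries. For H3K27ac the median SD was 0.262 and rho 0.892 over 58 genes, with means between 1.93 and 5.69.

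By place, the genes fall into 5 groups. On chromosome 13, 17 genes lie between 21715711 and 21833475, 5 between 22035122 and 22043658, 29 between 23531044 and 23764412, and H2bc1 and H2ac1 between 23933725 and 23934913. On chromosome 3, 10 genes lie between 96219885 and 96270192. The median CHD7 fold was 5.45 on chromosome 3 and 3.72 on chromosome 13, and the median H3K27ac fold was 3.78 on chromosome 3 and 2.80 on chromosome 13. Within chromosome 13 the first 3 groups had median CHD7 folds of 3.70, 3.07 and 3.72 and median H3K27ac folds of 2.69, 2.80 and 3.41. By their strongest regions the genes of chromosome 3 were alike: their mean CHD7 folds lay between 4.76 and 5.86. Those of chromosome 13 lay between 2.09 and 11.02.

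On chromosome 3, H2ac21, H2ac20 and H2bc21 shared CHD7 folds of 5.74 and 5.97 and H3K27ac folds of 4.90 and 3.77. H3c15 and H2ac19 had, in regions over H2ac19, 5.34 and 5.14 for CHD7 and 3.57 and 3.98 for H3K27ac. The regions over H3c15 itself had 4.03 and 4.22 for CHD7 and 2.87 and 3.44 for H3K27ac. H3c14 and H2ac18, the mirrored duplicate of H3c15 and H2ac19, had 4.63 and 4.89 for CHD7 and 3.50 and 3.49 for H3K27ac. That CHD7 region lay over H2ac18 and that H3K27ac region over H3c14. The regions over the other gene had 4.56 and 4.33 for CHD7 (H3c14) and 3.41 and 3.13 for H3K27ac (H2ac18). These duplicates are nearly identical in sequence, as are the coding parts of many members, and the sources used here do not give how the authors' mapping placed reads that match several copies, so values of such copies are uncertain. H4c14 had 5.83 and 4.90 for CHD7 and 2.98 and 3.06 for H3K27ac. H3c13 and H2bc18 shared 5.84 and 5.22 for CHD7 and 3.42 and 4.16 for H3K27ac. That H3K27ac region lay over H3c13 and 233 bp from H2bc18. Over H2bc18 itself only library 1 had an H3K27ac peak, of fold 2.78. Every gene of this cluster had regions of both within 1 kb, and the libraries differed most for H2ac21 and its neighbours in H3K27ac.

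Neighbouring genes share regions, so the 63 genes carry 50 CHD7 regions and 69 H3K27ac regions. Of the CHD7 regions, 17 lay at 1 gene, 28 at 2 and 5 at 3. Of the H3K27ac regions, 30 lay at 1 gene, 33 at 2 and 6 at 3. None of these 50 and 69 regions overlapped an input peak. H3K27ac overlapped 46 of the 50 CHD7 regions (92.0%), against 80.4% of 10197 CHD7 regions at protein-coding gene ends. CHD7 overlapped 67 of the 69 H3K27ac regions (97.1%), against 72.0% of 11214 H3K27ac regions at gene ends. The rank correlation of fold between libraries over the 50 CHD7 regions was 0.985, against 0.607 over all CHD7 regions at gene ends. For H3K27ac it was 0.874 over 69 regions and 0.787 over all.

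The CHD7 regions at histone genes were broad. Their median width was 1116 bp, against 686 bp at other gene ends, and 18 of 50 (36.0%) were at least 1500 bp wide, against 3.01% of all CHD7 regions at gene ends. They made up 13 of the 100 widest of those regions. The H3K27ac regions at histone genes had a median width of 712 bp, against 786 bp at other gene ends, and 1 was among the 100 widest. The 17 CHD7 regions at a single gene had a median width of 1037 bp, the 28 at 2 genes 1107 bp and the 5 at 3 genes 1783 bp. The widest CHD7 region, of 3196 bp at chr13:21809133-21812328, ran over H2ac23 and H4c17 and reached H2bc23, and the next, of 3106 bp at chr13:21831622-21834727, ran over H4c18 and H2ac24. Per library, the peaks at histone genes had median widths of 995 and 1004.5 bp for CHD7 and 616 and 611 bp for H3K27ac. At all gene ends they were 494 and 505 bp for CHD7 and 630 and 629 bp for H3K27ac. The difference of 386 bp at histone genes exceeded the spread between libraries (exact permutation p = 0.333, two-sided, the smallest possible).

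**Figure D3:**
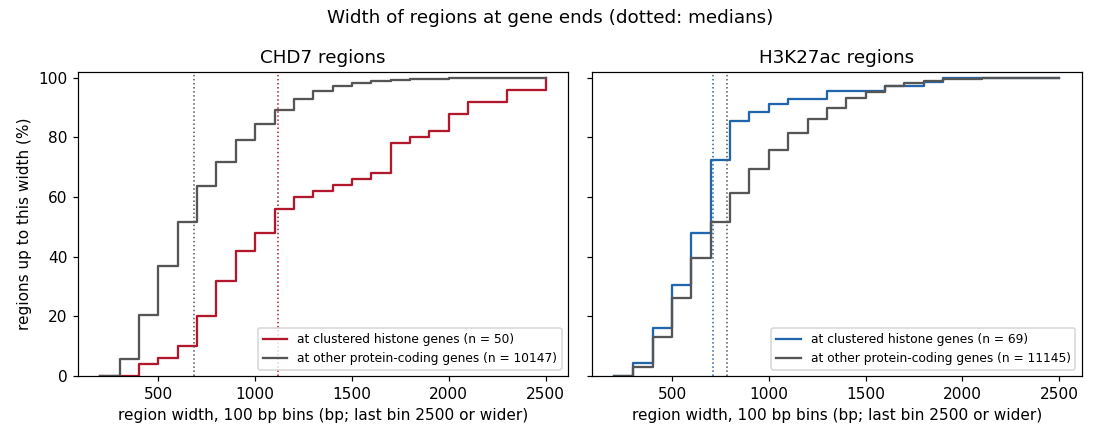
Cumulative percentage of regions up to a given width in bp, for CHD7 (left) and H3K27ac (right), at clustered histone genes (coloured) and at other protein-coding genes (grey), with medians dotted. The CHD7 curve of the histone genes lies right of the grey one, with medians of 1116 and 686 bp, and the H3K27ac curve does not, with 712 and 786 bp.

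CHD7 covered nearly the whole of these short genes. Over the 58 members of at most 1000 bp, CHD7 peaks covered a mean of 93.5% ± 0.12 of the gene and H3K27ac peaks 66.2% ± 1.12 (SD, n = 2 each), 27.3 points apart (exact permutation p = 0.333, two-sided, the smallest possible). The whole gene was covered in 40 and 39 of 58 genes by CHD7 and in 3 and 4 by H3K27ac. At other genes of at most 1000 bp with a peak, the mean cover came to 44.3% and 41.5% by CHD7 and to 52.0% and 50.1% by H3K27ac. The histone genes thus exceeded the other short genes for both antibodies, and by more for CHD7. With a −log10 q of 10 or more the antibodies differed by 50.9 points. Of the 63 genes, 36 then had an H3K27ac region and 63 a CHD7 region, and the part of this in the wider difference was not tested.

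The antibodies also differed around the start of transcription. Of the 56 members with a matched start, CHD7 peaks covered the start itself in 39 and 37 (69.6% and 66.1%), and H3K27ac peaks in 3 and 4 (5.36% and 7.14%). The means of 67.9% ± 2.53 for CHD7 and 6.25% ± 1.26 for H3K27ac (SD, n = 2 each) were 61.6 points apart (exact permutation p = 0.333, two-sided, the smallest possible). Other genes with a CHD7 region had the start covered by CHD7 in 28.9% and 31.3%, and other genes with an H3K27ac region had it covered by H3K27ac in 42.7% and 41.3%. The share for CHD7 was thus above that of other genes, and the share for H3K27ac below it. Among other genes of like fold, between the quartiles of the histone genes (3.31 to 5.45 for CHD7, 2.63 to 3.85 for H3K27ac), the start was covered in 32.1% and 34.0% by CHD7 and in 27.8% and 24.3% by H3K27ac. All these other genes were taken with a region at either end. In a long gene a region at the far end cannot cover the start, which can lower their shares. Around the start their CHD7 cover reached at most 68.8% and 71.4%, against 96.4% in both libraries for the histone genes. How much this adds to the CHD7 difference was not tested.

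At 50 bp past the start, CHD7 covered 83.9% of the histone genes and H3K27ac 12.5%, each in both libraries. At 250 bp into the gene, CHD7 covered 96.4% of the histone genes in both libraries, and H3K27ac covered 87.5% and 82.1%. At 500 bp before the start, CHD7 covered 66.1% and 64.3%, and H3K27ac covered 76.8% and 66.1%. H3K27ac thus lay on both sides of a gap at the start. CHD7 cover was lower upstream of the start than at it, with 42.9% and 46.4% at 100 bp before the start, where H3K27ac covered 7.14% and 5.36%. Signal before the start often belongs to a neighbour, so 11 members with no other protein-coding gene within 2 kb were read alone. In these, CHD7 covered 250 and 500 bp past the start in 11 of 11 genes in both libraries, and the start in 90.9% and 72.7%. At 500 bp before the start it covered 27.3% in both. All 11 CHD7 summits lay downstream of the start in both libraries, at a median of 364 and 357 bp. H3K27ac covered the start in 9.09% of the 11 in both libraries, 250 bp past it in 81.8% in both, and 500 bp before it in 54.5% in both.

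**Figure D4:**
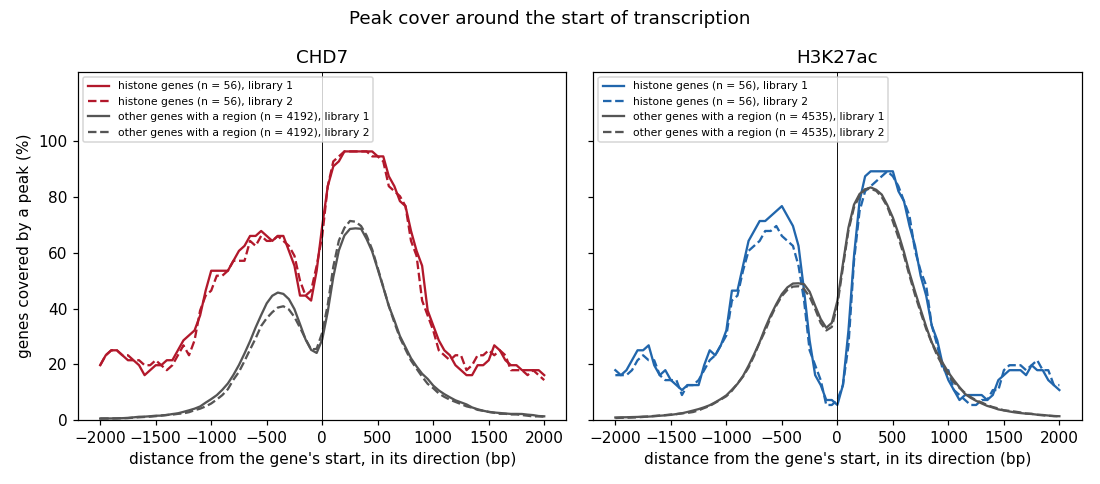
Percentage of genes covered by a peak at each distance from the start of transcription, for CHD7 (left) and H3K27ac (right), in the 56 histone genes (coloured) and in other genes with a region (grey), library 1 solid and library 2 dashed. At the start itself the histone genes lie at 69.6% and 66.1% for CHD7 and at 5.36% and 7.14% for H3K27ac.

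Single genes showed part of this layout: at H4c6 and H1f5, H3K27ac lay near the start on its downstream side alone. In H4c6, of 383 bp, CHD7 peaks ran from 50 and 34 bp before the start to 920 and 867 bp past it, and the H3K27ac peaks from 73 and 85 bp to 784 and 734 bp past it. In H1f5, of 794 bp, CHD7 peaks began 31 bp before the start in library 1 and 21 bp past it in library 2 and ended at 1174 and 1137 bp. The H3K27ac peaks of H1f5 ran from 178 and 237 bp to 996 and 1012 bp past the start. In both genes the CHD7 peaks enclosed the H3K27ac peaks and ran beyond the end of the gene.

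Of the genes without H3K27ac, H3c11 had CHD7 folds of 2.57 and 2.51, from 18 bp before the start in library 1 and 27 bp past it in library 2 to 670 and 674 bp past it. H4c2 had CHD7 folds of 2.78 and 2.88, from 43 and 24 bp to 675 and 587 bp past the start. Their nearest H3K27ac regions lay 2468 bp from H3c11 and 3121 bp from H4c2. Both genes thus carried CHD7 of low fold over the gene itself. In H2bc1, whose promoter with its octamer is printed above, CHD7 peaks ran from 28 and 35 bp to 560 and 554 bp past the start, with summits at 285 and 284 bp, inside the gene of 432 bp. The region lay 309 bp from H2ac1 and left that gene uncovered. The nearest H3K27ac region lay 169521 bp from H2bc1, so this pair stood apart from the other members in fold and in the distance to acetylation.

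**Figure D5:**
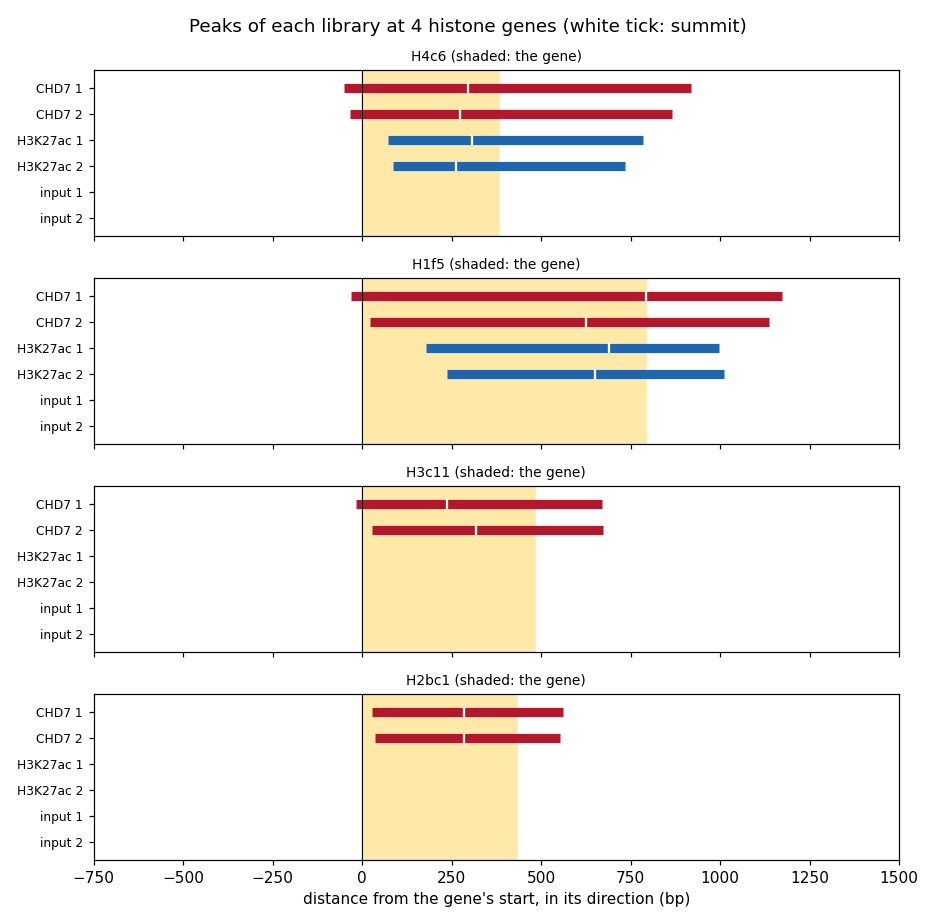
Peaks of each library at H4c6, H1f5, H3c11 and H2bc1 by distance in bp from the start of transcription, with the gene shaded and summits as white ticks; the CHD7 rows are above the H3K27ac and input rows. CHD7 peaks overlap all 4 genes, H3K27ac peaks overlap H4c6 and H1f5, and input peaks none.

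Between the first and the last member on chromosome 13 lie 51 other protein-coding genes, most of them vomeronasal receptor genes of the Vmn1r family. CHD7 lay at 5 of these (9.80%) and H3K27ac at the same 5, so most other genes of the span had neither. They were H4bc24, which shares the region of H2ac24, and Abt1 (CHD7 folds 3.96 and 5.08), Pom121l2 (3.83 and 4.06), Zfp322a (3.78 and 3.98) and Zfp184 (3.26 and 2.65). On chromosome 3 no other protein-coding gene lies between the members.

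Histone genes outside the rule were read from a list of replacement and other histones, of which 15 of 16 were in the table. These genes, transcribed outside S phase in many cases, had CHD7 at 12 of 15 (80.0%, against 44.2% of all genes) and H3K27ac at 11. The highest CHD7 folds were those of H4f16 (9.12 and 9.25), H2bu2 (6.04 and 5.30), H1f10 (5.53 and 4.81), H2az2 (4.98 and 4.20) and H2ax (4.22 and 4.50). H1f0, H2az1, Macroh2a1, Macroh2a2, H3f3a and Cenpa also had both, H3f3b had CHD7 alone, and H1f7, H1f8 and H2aj had neither. The median H3K27ac fold of this list was 5.25, above that of the clustered genes.

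Genes that serve histone gene expression had CHD7 at 30 of 35 (85.7%) and H3K27ac at 32 (91.4%), against 44.2% and 47.6% of all genes. Their median CHD7 fold was 3.98 and their median H3K27ac fold 5.14, against 3.73 and 4.80 for all genes. The highest CHD7 folds were those of Pou2f1, which encodes an octamer-binding factor (5.86 and 5.19), Casp8ap2, a component of histone locus bodies (4.64 and 4.90), Nasp, a histone chaperone (4.32 and 4.95), Cpsf3, the nuclease that cuts histone messages (4.77 and 4.12), and Eri1, an exonuclease that acts on the histone stem-loop (4.30 and 4.49). Npat had CHD7 folds of 2.53 and 4.11. Cstf2, Sympk, Coil, Nfyc and Ccne2 had no CHD7 region, and Nfyc, Asf1b and Nasp had no H3K27ac region. Most genes of this list thus carried both, at folds close to those of all genes with a region.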

How the data were processed

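Peak lists of 2 CHD7, 2 H3K27ac and 2 input libraries were read. Per the submitters' processing notes, the tools were MACS2 2.1.2, Bowtie2 2.3.3.1, bcl2fastq 2.18.0.12 and Picard, on build mm10. The sources used here do not give whether input served MACS2 as a control. Each deposited list comes from a single library and gives, per peak, the fold (a ratio) at the summit and the p-value and q-value as −log10. The deposited lists also hold a score and a summit offset. Depth is unknown, so no counting interval was computed.

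Rows of the same interval were joined under their highest fold, on placed chromosomes (1 to 19, X, Y). Regions were merged peaks that overlapped by at least 1 bp and came from both libraries. Of 21887 protein-coding genes of the RefSeq table, 111 that started below position 3000000, or 500000 on the Y chromosome, were left out as unplaced. Strand and start came from the RefSeq promoter table where its start equalled an end of the gene. Libraries were compared by exact permutation with Python 3.11.15, numpy 2.4.6, pandas 2.3.3 and scipy 1.17.1. The search for gene ends was tested on simulated regions. Genes named with values were the H1 genes, those of chromosome 3, the 10 of highest fold for each antibody, those with 1 antibody's region alone, and those nearest the 1 kb limit; H4c6, the peak extents of H1f5, the low triplet around H2bc7, the widest regions and Npat were chosen after their values were seen, as were the measures of width, cover and start. Members and lists were chosen with earlier results of these data known. Alternatives were other windows, thresholds, list lengths and overlaps, and leaving out each library.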

Additional observations from a re-analysis of the deposited data

How the results depend on the processing

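Of the recomputed counts, medians and differences, 109 kept their direction and stayed within 1.5 times (counts) or the spread between libraries (medians). The other 9 moved. Some of the 109 could not move. Leaving out a library of 1 antibody leaves the counts and medians of the other as they were. The replicate block recomputes the same differences, and no region at these genes overlapped an input peak. The 109 thus overstate stability. With −log10 q values of 10 or more, 36 genes had H3K27ac and 36 had both, the H3K27ac regions numbered 31, and the median H3K27ac fold was 3.78. With the 10000 peaks of lowest q in each list, the H3K27ac regions numbered 38 and the median H3K27ac fold was 3.51. Within 500 bp the median H3K27ac fold was 3.35. Leaving out each library in turn gave medians between 3.26 and 3.41, and the lower values, 3.26 and 3.33, came from leaving out an H3K27ac library. CHD7 was found at 62 or 63 of 63 genes in all of these settings. Whether libraries of the same number are paired across antibodies is not in the labels. Across 8567 genes, the log2 ratio of library 1 over library 2 for CHD7 and for H3K27ac had a Pearson r of 0.0101. This cannot decide it, since material in common need not shift the folds of both antibodies together. With a replicate block, the differences of 7.94 and 8.32 points, of 27.3 points, 386 bp and 61.6 points had an exact p of 0.5, the smallest possible with 2 pairs. The 242 values of single genes with a library left out stayed within the SD of the libraries. With 2 libraries this holds for any values, so it does not measure stability. The settings for width, cover and start were chosen after the data had been seen: the start difference lay between 59.8 and 63.4 points with a library left out and was 61.6 points with 10000 peaks, the width difference was 271 bp with the stricter q and 289 bp with 10000 peaks, and the cover difference was 46.7 points with 10000 peaks.

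With 2 libraries a group the exact permutation test cannot give a p below 0.333. Depth is unknown. With lists of equal length, 10000 peaks each, the differences between CHD7 and H3K27ac kept their direction. Near-identical copies limit the values of single genes.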

Other observations

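The histone genes of chromosome 11 lie close together: H2bu2 had CHD7 folds of 6.04 and 5.30 and H3K27ac folds of 4.90 and 4.22, H2aw had 3.64 and 3.67 for CHD7 and 4.53 and 4.14 for H3K27ac, and H3f4, an H3 gene known from the testis in human, had neither. On chromosome 13, 77 tRNA genes of the RefSeq table lie between the first and the last clustered histone gene. Of the CHD7 regions in this span, 43 lay at the clustered histone genes and 0 of these overlapped a tRNA gene, and 42 lay elsewhere, of which 34 overlapped a tRNA gene. Their median CHD7 folds were 3.45 at the histone genes and 3.74 elsewhere. For H3K27ac, 59 regions lay at the histone genes, of which 1 overlapped a tRNA gene, and 26 lay elsewhere, of which 9 did. One histone gene, H4c8, has a tRNA gene within 1 kb, and the other 62 genes kept CHD7 at 62 and H3K27ac at 57. On chromosome 3 no tRNA gene lies between the members.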
